A study of Mus musculus with 18 samples.

Results

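The transcripts encoded by mitochondrial DNA were followed through nuclear and whole cell lysates of mouse Neuro2A (N2A) cells, as a gauge of cytoplasmic RNA in the nuclear lysates. The members were 10 mitochondrial genes (mt-Nd1, mt-Nd2, mt-Rnr1, mt-Rnr2, mt-Co1, mt-Co2, mt-Atp6, mt-Nd5, mt-Cytb and mt-Nd6), chosen by name, and every locus whose gene list holds one of them was taken. This gave 4 loci of the 52179 that carry a gene symbol, and of 168136 in all. A locus is a set of transcripts that the authors' assembly put under 1 identifier, and 3 of these 4 join several genes, whose reads cannot be split.

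Mitochondrial DNA is a small circle that is transcribed from both strands inside the mitochondrion, so its RNA does not normally pass through the nucleus. Long precursors are cut at the tRNAs that lie between the genes, which releases the ribosomal RNAs of the mitochondrial ribosome and the mRNAs for subunits of the respiratory chain and of ATP synthase. Most of the mRNAs receive short poly(A) tails. The heavy strand is the template of nearly all of the mRNAs, while mt-Nd6 is read from the other strand. Mitochondria surround the nucleus and can stay attached to it when cells are broken open.

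N2A is a line from a mouse neuroblastoma, a tumor of the sympathetic nervous system, and the labels give its genotype as wild type. Each of the 6 groups held 3 samples. Cells had received a mimic of miR-92b tagged with biotin, a scrambled sequence (Scr) tagged in the same way, both at 25 nM, or no transfection (control), and each treatment was sampled as a nuclear and as a whole cell lysate. Streptavidin beads collect the tagged RNA with its partners. Whether the control lysates, which held no tagged RNA, also went over the beads is not given in the sources used here, so a comparison against control may set a pulldown against a pulldown or against total RNA. Libraries were then made from RNA selected on oligo-dT beads, which hold poly(A) tails, with a kit that keeps the strand. Nothing in the labels says that samples of a group came from separate cultures, so p-values measure the spread between these samples, which may be technical. Because these are bulk libraries, a few unbroken cells in a nuclear lysate and a little cytoplasmic RNA around every nucleus cannot be told apart.

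The libraries held between 3752991 and 22920038 reads on loci with a symbol. Among the neuroblastoma markers, the sympathetic factors Phox2a and Hand2 had mean normalized counts of 589.8 and 994 in nuclear and 574 and 1161 in whole cell lysates. Markers of fibroblasts, blood cells and epithelium had a mean normalized count of at most 9.06 in either compartment. Libraries that stood apart in mitochondrial RNA were nuclear Scr samples 2 and 3 and whole cell miR-92b sample 3. Several, but not all, of the comparisons between groups that include them are also given without them.

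On the mitochondrial chromosome of GRCm38 (mm10), GENCODE release M21 annotates 37 genes, of which 13 code for proteins, 2 for ribosomal RNAs and 22 for tRNAs. The first locus (XLOC_159124, chrM:1-5016), called the rRNA locus here, joins the ribosomal RNAs mt-Rnr1 (small subunit) and mt-Rnr2 (large subunit) with mt-Nd1 and mt-Nd2, subunits of complex I, and with 6 tRNAs. The second (XLOC_159125, chrM:5328-14070), called the mt-Co1 locus, joins mt-Co1, mt-Co2 and mt-Co3 of cytochrome c oxidase (complex IV), mt-Atp6 and mt-Atp8 of ATP synthase, and mt-Nd3, mt-Nd4, mt-Nd4l and mt-Nd5 of complex I, with 7 tRNAs. The third (XLOC_159126, chrM:14145-16084) holds mt-Cytb, the catalytic subunit of complex III, and mt-Tt. The fourth (XLOC_159133) holds mt-Nd6 alone, a complex I subunit on the minus strand at chrM:13552-14070, although the file lists it with the region of the mt-Co1 locus that lies on the plus strand. Whether the authors counted reads by strand is not given in the sources used here, so reads of mt-Nd6 and of RNA from the other strand of the same stretch cannot be told apart. The other 8 loci of this chromosome hold only a tRNA each (mt-Tq, mt-Ta, mt-Tn, mt-Tc, mt-Ty, mt-Ts1, mt-Te and mt-Tp). They had no read in any library, apart from 4 reads on mt-Ts1 in whole cell control sample 3.

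The annotated mRNA ends are given because oligo-dT beads hold poly(A) tails. No tail was measured here, and the ribosomal RNAs are not among these ends. In GENCODE M21, 10 of the 13 mitochondrial coding transcripts end in a whole stop codon and 3 end in a lone T, which the poly(A) tail completes to a stop codon. The last 20 bases of these 3 and of mt-Co1, 5′ to 3′, are shown with the stop codon or its first base in capitals.
mt-Co3 (chrM:9371-9390, plus strand): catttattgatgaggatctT
mt-Nd4 (chrM:11525-11544, plus strand): aattacaggcctgacaataT
mt-Cytb (chrM:15269-15288, plus strand): aatactaaaattatatccaT
mt-Co1 (chrM:6853-6872, plus strand): cctatgtaaaagtaaaaTAA
The coding regions of mt-Nd5 and mt-Nd6 overlap by 14 bases on opposite strands at chrM:13552-13565, and this stretch is shown from both strands because a read there needs the strand to be given to a gene.
mt-Nd5 (plus strand): ttaatctcgagtaa
mt-Nd6 (minus strand): ttactcgagattaa

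The bait of the pulldown, mmu-miR-92b-3p, is shown with its seed (bases 2 to 8) in capitals, as RefSeq gives it for GRCm38.p6 at chr3:89227126-89227147 on the minus strand.
mmu-miR-92b-3p: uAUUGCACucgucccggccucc
A match to bases 2 to 8 of the seed, GTGCAAT, occurred in 1 of the 15 longer mitochondrial transcripts (13 mRNAs and 2 ribosomal RNAs, 13940 bases searched on the sense strand). It lies in mt-Co1 at chrM:5806-5812 and is shown in capitals within chrM:5795-5823, plus strand.
mt-Co1: atctattttagGTGCAATtaattttatta
No sense strand held the match of 8 bases, GTGCAATA, which contains GTGCAAT. On the antisense strand, GTGCAATA occurred once opposite mt-Nd1, and the shorter match TGCAAT occurred once more, opposite mt-Nd4. For comparison, 1586 of 32764 nuclear-encoded coding transcripts (4.84%) held GTGCAAT within their first 1545 bases, the length of mt-Co1. A match is a description of these letters and not a site.

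Mitochondrial RNA was a prominent part of every whole cell library and a small part of every nuclear library. The summed reads of the 4 loci, as a percentage of the reads on loci with a symbol (the mitochondrial share), were 36.4-fold lower in nuclear than in whole cell lysates on average over the 3 treatments (log2 difference -5.19). This difference was larger than the spread between samples, and the nuclear and whole cell libraries did not overlap. Within the nuclear libraries the share still varied 18.1-fold, against 3.33-fold within the whole cell libraries.

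In whole cell control samples 1, 2 and 3 the share was 3.34%, 3.27% and 4.15%. In whole cell Scr samples it was 2.69%, 2.57% and 3.69%, and in whole cell miR-92b samples 2.16%, 2.14% and 7.15%. Among these 9 libraries, 8 lay between 2.14% and 4.15%, and whole cell miR-92b sample 3 lay above all others. The nuclear control samples held 0.0268%, 0.0463% and 0.106%, and the nuclear miR-92b samples 0.0476%, 0.0821% and 0.112%. The nuclear Scr samples held 0.0514%, 0.237% and 0.485%. Nuclear Scr sample 1 thus lay among the other nuclear libraries, whereas samples 2 and 3 lay above all of them. In each nuclear group the share rose from sample 1 to sample 3, and in each whole cell group sample 3 was highest. What the sample number stands for is not given in the sources used here. Counting error was small beside the differences between libraries. The 95% Wilson intervals ran from 0.0252% to 0.0285% for the lowest library and from 0.479% to 0.491% for nuclear Scr sample 3, and they cover counting error only.

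**Figure D1:**
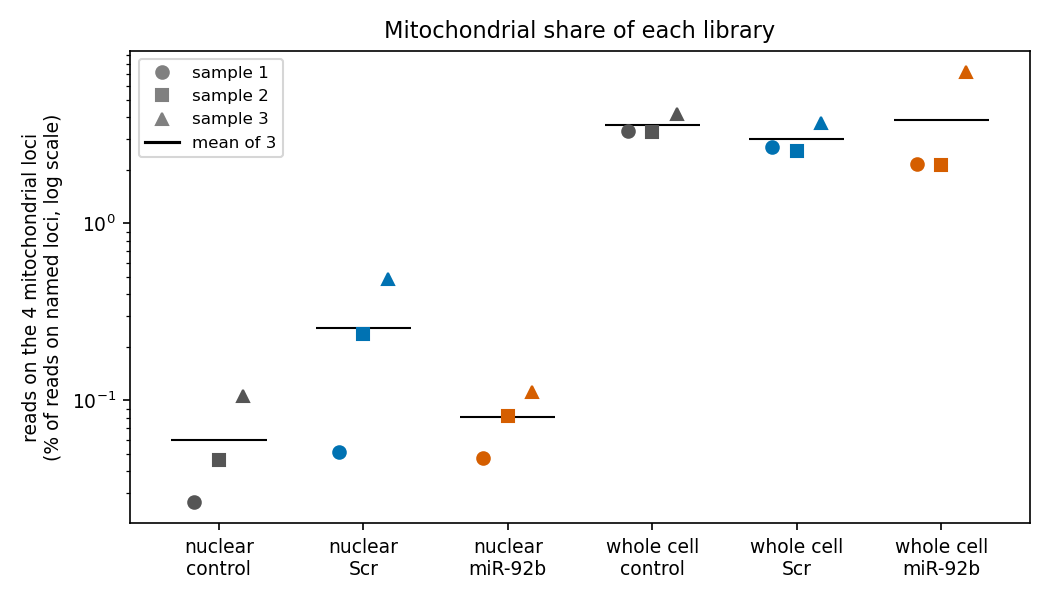
Percent of reads on loci with a symbol that fell on the 4 mitochondrial loci (y axis, log scale) in each of the 18 libraries, by group (x axis), with the mean of 3 samples as a line. The 9 nuclear libraries lie between 0.0268% and 0.485%, below the 9 whole cell libraries (2.14% to 7.15%), and nuclear Scr samples 2 and 3 lie above the other nuclear libraries.

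The difference in share over the 3 treatments had an exact permutation p of 0.00025 (two-sided, compartment labels permuted within treatment, 0.00275 after Benjamini-Hochberg adjustment over 11 comparisons of the share), which is the smallest p this design allows. Without nuclear Scr samples 2 and 3 the log2 difference was -5.79 (exact permutation p = 0.000625), and without whole cell miR-92b sample 3 it was -4.99. Within treatments, the share was 70.1-fold lower in nuclear control, 16.3-fold lower in nuclear Scr and 42.3-fold lower in nuclear miR-92b samples. With 3 samples against 3, the exact permutation p of each was 0.1, the smallest possible. Within miR-92b the log2 difference was -5.40, and without whole cell miR-92b sample 3 it was -4.83. The Scr value depended on the nuclear samples included, with 8.68-fold without sample 1, 26.7-fold without sample 3 and 57.3-fold without samples 2 and 3. The nuclear over whole cell difference was smaller in Scr than in control by 2.11 (log2), which did not pass the threshold (exact permutation p = 0.12). This gap between Scr and control was 3.01 without nuclear Scr sample 1 (exact permutation p = 0.025). It was 0.29 without nuclear Scr samples 2 and 3. Both settings were added after seeing the data.

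The nuclear mitochondrial share was also expressed as a percentage of the mean whole cell share of the same treatment. This ratio of 2 shares of reads does not measure an amount of RNA. It was 0.747%, 1.29% and 2.96% in nuclear control and 1.25%, 2.15% and 2.93% in nuclear miR-92b samples. In nuclear Scr samples it was 1.72%, 7.96% and 16.3%. The 2 highest values were again those of nuclear Scr samples 2 and 3, and the other 7 nuclear libraries stayed below 3%. The whole cell miR-92b mean includes sample 3 (7.15%, against 2.16% and 2.14% in samples 1 and 2). Without that sample the nuclear miR-92b percentages would be higher and would not all stay below 3%.

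Each of the 4 loci was lower in nuclear lysates. Averaged over treatments, limma called all 4 lower at an adjusted p below 0.05, where 31.0% of the 15579 tested loci were called, 15.8% lower and 15.3% higher, and the median log2 fold change of all tested loci was 0.14. Fold changes here are on the log2(normalized count + 1) scale, where normalized counts are reads scaled by 1 factor for each library.

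The rRNA locus had normalized counts of 693, 1444 and 2914 in nuclear control, 1049.7, 6229 and 16584 in nuclear Scr and 1404, 2379 and 3427 in nuclear miR-92b samples. In whole cell lysates it had 118921, 125547 and 158309 in control, 93829, 96353 and 134609 in Scr and 76017, 82370 and 309541 in miR-92b samples. The lowest whole cell library thus stood 4.58-fold above the highest nuclear one. The log2 fold change over treatments was -5.60 (SE 0.38, limma adjusted p = 1.78e-10), the lowest of all 15579 loci. By number of reads this locus ranked first or second in every whole cell library, and between 16 and 1869 in the nuclear libraries.

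The mt-Co1 locus had 672, 1025 and 2786 in nuclear control, 1642, 6189.6 and 9632 in nuclear Scr and 1139, 1933 and 2604 in nuclear miR-92b samples. In whole cell lysates it had 65619, 54837 and 77733 in control, 51294, 43969 and 71668 in Scr and 38969.8, 34696 and 143232 in miR-92b samples. No nuclear library reached a whole cell one, and the order of the nuclear Scr samples was that of the rRNA locus. The fold change over treatments was -4.76 (SE 0.31, limma adjusted p = 1.44e-10).

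The mt-Cytb locus had 129.97, 202 and 608 in nuclear control, 242, 1577 and 2407 in nuclear Scr and 217, 359 and 412 in nuclear miR-92b samples. In whole cell lysates it had between 7954 and 28002, with whole cell miR-92b sample 3 highest, and the compartments again did not overlap. Its fold change over treatments was -4.89 (SE 0.34, limma adjusted p = 2.68e-10).

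The mt-Nd6 locus rested on few reads. The nuclear control libraries held 9, 6 and 0 reads on it, nuclear Scr 3, 89 and 34, and nuclear miR-92b 3, 20 and 11. The whole cell libraries held between 22 and 598 reads, and its normalized counts overlapped between the compartments, since nuclear Scr sample 2 (102 normalized counts) exceeded 5 of the 9 whole cell libraries. Its fold change over treatments was -3.07 (SE 0.68, limma adjusted p = 0.00135).

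Within control, limma called all 4 loci lower in nuclear lysates, where 9.85% of the tested loci were called, 6.91% lower and 2.94% higher. The fold changes were -6.54 (SE 0.65) for the rRNA locus, -5.72 (SE 0.54) for the mt-Co1 locus, -5.79 (SE 0.59) for mt-Cytb and -4.39 (SE 1.18) for mt-Nd6. Within miR-92b all 4 were called lower as well, beside 13.3% of the tested loci (6.63% lower, 6.66% higher), with -5.79, -5.01, -5.27 and -4.00 in the same order. Within Scr, 3 of the 4 were called lower, beside 5.17% of the tested loci (3.70% lower, 1.46% higher). These were the rRNA locus with -4.48, the mt-Co1 locus with -3.56 and mt-Cytb with -3.60, while mt-Nd6 had -0.81 (SE 1.18, limma adjusted p = 0.733). Without nuclear Scr sample 1 the rRNA locus had -3.39 within Scr, without sample 3 it had -5.38, and without samples 2 and 3 it had -6.67. The last value rests on 1 nuclear Scr library, which the limma fit assumes to vary like the other groups (limma adjusted p = 8.71e-05). The mt-Nd6 calls were lost within control without nuclear sample 3 or any one of the 3 whole cell samples (limma adjusted p between 0.0545 and 0.120), and within miR-92b without nuclear sample 1 or 2 or whole cell sample 3 (limma adjusted p between 0.0799 and 0.154).

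**Figure D2:**
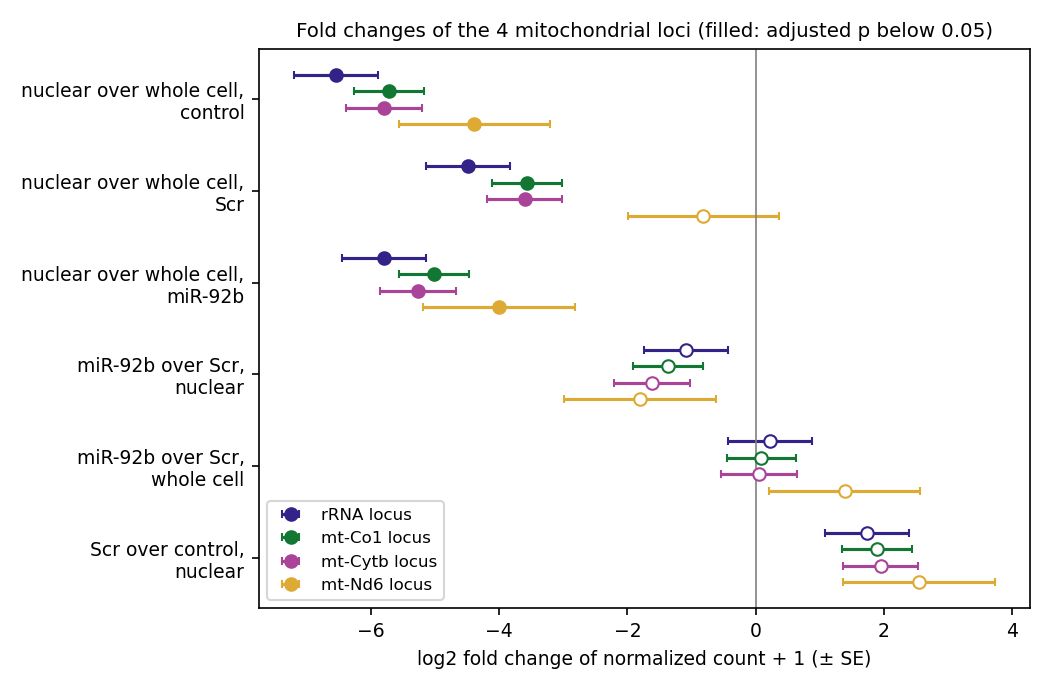
Log2 fold change of the normalized count plus 1 (x axis, points with SE bars) of the 4 mitochondrial loci in 6 comparisons (y axis), filled where the limma adjusted p was below 0.05. The rRNA, mt-Co1 and mt-Cytb loci are filled in all 3 nuclear over whole cell comparisons (-3.56 to -6.54), and no locus is filled in the comparisons between treatments.

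Per length of transcript, the deposited FPKM (fragments scaled by transcript length and library size) ordered the loci in the same way in every whole cell library. The rRNA locus was highest with 8831 to 27459 FPKM, followed by the mt-Co1 locus with 4414 to 15302, mt-Cytb with 1254 to 3689 and mt-Nd6 with 10.8 to 199. In nuclear libraries the ranges were 83.2 to 1911, 83.4 to 1134, 19.9 to 382 and 0 to 51.9 FPKM. The rRNA and mt-Co1 loci changed order between nuclear libraries, with the mt-Co1 locus higher in control sample 1 and Scr sample 1. The FPKM of a joined locus covers several transcripts and is not the level of 1 gene.

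The mitochondrial RNA of nuclear lysates also differed in composition. The rRNA locus held 35.7% to 57.9% of the mitochondrial reads in nuclear and 59.8% to 65.7% in whole cell libraries. The ratio of its reads to those of the mt-Co1 locus, which does not depend on depth or scaling, was 1.03, 1.41 and 1.05 in nuclear control, 0.639, 1.01 and 1.72 in nuclear Scr and 1.23, 1.23 and 1.32 in nuclear miR-92b samples. In whole cell lysates the ratio was 1.81, 2.29 and 2.04 in control, 1.83, 2.19 and 1.88 in Scr and 1.95, 2.37 and 2.16 in miR-92b samples. No nuclear ratio reached a whole cell ratio, and nuclear Scr sample 3, the nuclear library with most mitochondrial RNA, came closest. The log2 difference over treatments was -0.84 (exact permutation p = 0.00025, the smallest possible, 0.00275 adjusted over 11 comparisons of the ratio), and it was -1.07 without nuclear Scr samples 2 and 3. The ratio of mt-Cytb to the mt-Co1 locus had a log2 difference of -0.12 over treatments (exact permutation p = 0.227). No shift between these was thus detected on average. Within miR-92b it was -0.26, with every nuclear value below every whole cell value (exact permutation p = 0.1, the smallest possible). Within control it was -0.08 and within Scr -0.04. Between treatments, within or across compartments, the ratio of the rRNA to the mt-Co1 locus gave no exact permutation p below 0.3.

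The share of mt-Nd6 among mitochondrial reads was examined after its values had been seen. It lay between 0% and 0.862% in nuclear libraries (median 0.156%) and between 0.0123% and 0.0792% in whole cell libraries, a difference in means of 0.250 percentage points (exact permutation p = 0.001). All nuclear libraries except control sample 3 lay above every whole cell library. In that sample 0 of 3987 mitochondrial reads fell on mt-Nd6, which allows a share of up to 0.0752% (3 reads) or, by the Wilson interval, 0.0963%, so that this library cannot be placed relative to the highest whole cell library. The reads behind the nuclear values are few, and the Wilson intervals were wide, from 0.454% to 1.63% for nuclear control sample 1, which held 9 reads. Nuclear Scr sample 1 and nuclear miR-92b sample 1 held 3 reads each. Their intervals (0.0529% to 0.456% and 0.0504% to 0.435%) reached below the highest whole cell share, so their place above it is not secure.

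**Figure D3:**
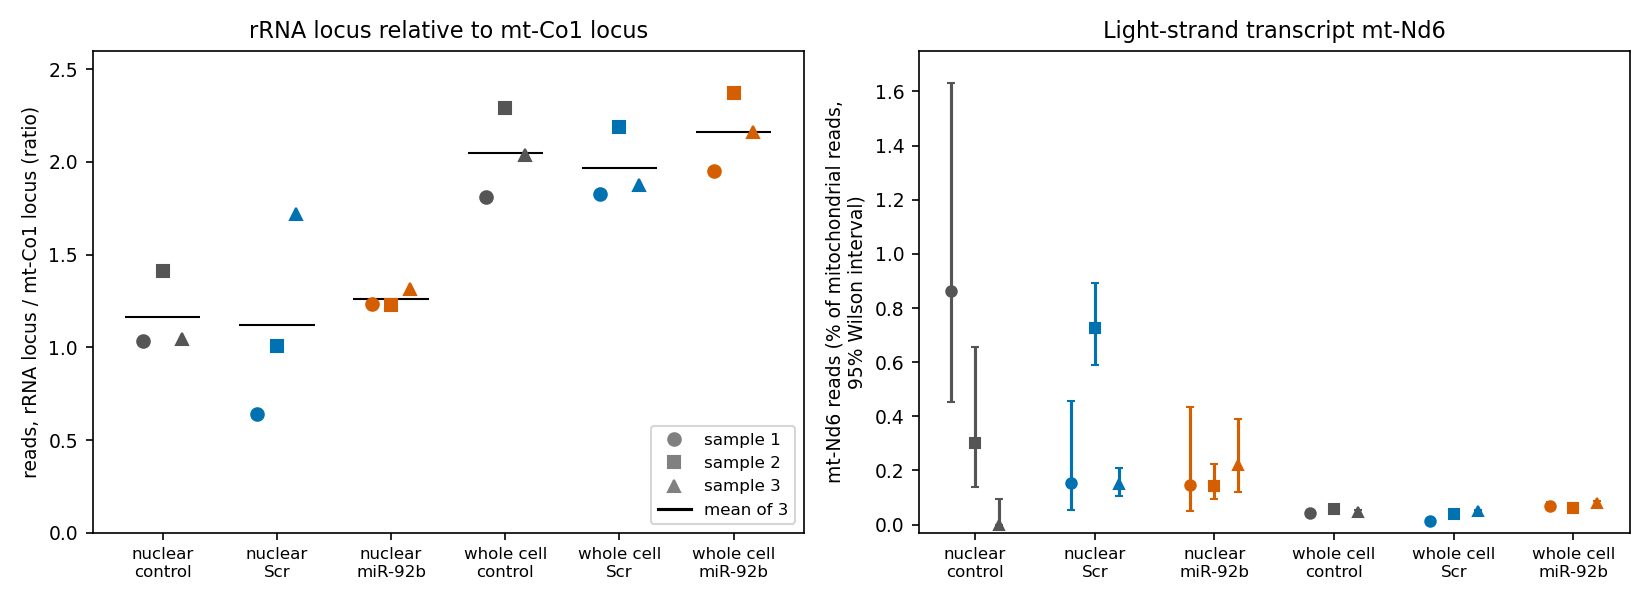
Left, reads on the rRNA locus divided by reads on the mt-Co1 locus (y axis, ratio) by library and group, with the mean of 3 samples as a line; right, mt-Nd6 reads as a percentage of mitochondrial reads with 95% Wilson intervals. The nuclear ratios (0.639 to 1.72) lie below the whole cell ratios (1.81 to 2.37), and 8 of the 9 nuclear mt-Nd6 shares lie above the highest whole cell share (0.0792%).

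Reads of mitochondrial RNA can also be placed on copies of mitochondrial DNA that lie in the nuclear genome, and reads of such copies on the mitochondrial loci. In GENCODE M21, 22 genes elsewhere had a transcript that aligned to a mitochondrial transcript over at least 100 bases, and of the 22 loci that hold them 13 had a read. Their reads came to 0.122% to 0.390% of the reads on the 4 mitochondrial loci in whole cell libraries and to 1.47% to 14.5% in nuclear libraries, with the highest value in nuclear control sample 1. The copy with most reads in nuclear libraries was Gm43841, similar to mt-Cytb (83.7% identical over 551 aligned bases), with 1316 reads in nuclear and 1003 in whole cell libraries. In nuclear control sample 1 its loci held 122 of the 151 reads on copies. The copy with most reads in whole cell libraries (3679, against 728 in nuclear libraries) was Gm28437 on chromosome 1 (chr1:24611535-24613971), identical to mt-Co3 over 783 aligned bases. Its locus was lower in nuclear lysates (log2 fold change -2.69, SE 0.49, limma adjusted p = 1.81e-04). Beside it, Gm10925, Gm28438, Gm28439 with Gm10222, Gm28661 and Gm29216 had too few reads to be tested. Lars2, the mitochondrial leucyl-tRNA synthetase, had normalized counts of 988, 1556 and 6819 in nuclear control, 1147, 55278 and 8729 in nuclear Scr and 1341, 720 and 1336 in nuclear miR-92b samples. Nuclear Scr samples 2 and 3 and nuclear control sample 3 held the highest nuclear values of Lars2, while the whole cell libraries held 2800 to 9977. No annotated Lars2 transcript aligned to a mitochondrial transcript in this search or in a more sensitive one.

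Between treatments, no mitochondrial locus passed the threshold. Nuclear lysates are described first. With miR-92b against Scr, where limma called 0% of the tested loci, the fold changes were -1.08 (SE 0.65) for the rRNA locus, -1.36 (SE 0.54) for the mt-Co1 locus, -1.61 (SE 0.59) for mt-Cytb and -1.80 (SE 1.18) for mt-Nd6, each with a limma adjusted p of 1. Unadjusted, 2 of the 4 loci had a limma p below 0.05, as had 687 of all tested loci, and edgeR and DESeq2 called 0 of the 4. The log2 difference in mitochondrial share was -1.25 (exact permutation p = 0.3). Taken without regard to sample number, the direction rested on nuclear Scr samples 2 and 3, since the 3 miR-92b samples lay on both sides of Scr sample 1. Among samples of the same number, each miR-92b share lay below the Scr share (exact sign-flip permutation p = 0.25, the smallest for 3 pairs). Without nuclear Scr samples 2 and 3 the difference in share was 0.56, and those of the loci were 1.10, 0.12, 0.39 and 0.60. These values set Scr sample 1, the lowest of its group in share, against all 3 miR-92b samples. Without Scr sample 1, mt-Cytb was the only one of the 4 called (-2.61, limma adjusted p = 0.0181), where 0.315% of the tested loci were called.

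With Scr against control in nuclear lysates, limma again called 0% of the tested loci. The fold changes were 1.74 (SE 0.65) for the rRNA locus, 1.89 (SE 0.54) for the mt-Co1 locus, 1.95 (SE 0.59) for mt-Cytb and 2.55 (SE 1.18) for mt-Nd6, with a limma adjusted p of 0.838 for each. All 4 had an unadjusted limma p below 0.05, as had 916 of all tested loci, and edgeR and DESeq2 called 0 of the 4. Without nuclear Scr sample 1, limma called 3 of the 4 higher, beside 0.443% of the tested loci called in either direction. These were the rRNA locus with 2.83, the mt-Co1 locus with 2.64 and mt-Cytb with 2.95. Without nuclear Scr samples 2 and 3, the rRNA locus had -0.44, the mt-Co1 locus 0.40 and mt-Cytb -0.06. With miR-92b against control in nuclear lysates, limma called 0% of the tested loci, and the fold changes of the 4 lay between 0.34 and 0.74, none with an unadjusted limma p below 0.05 (50 of all tested loci) and none called by edgeR or DESeq2. The comparisons share their control or Scr samples, so they are not independent of each other.

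In whole cell lysates, miR-92b against Scr gave fold changes of 0.22 (SE 0.65) for the rRNA locus, 0.09 (SE 0.54) for the mt-Co1 locus, 0.05 (SE 0.59) for mt-Cytb and 1.39 (SE 1.18) for mt-Nd6, where limma called 0.00642% of the tested loci. None of the 4 passed, adjusted or unadjusted (1515 of all tested loci had an unadjusted limma p below 0.05), and edgeR and DESeq2 called 0 of them. Without whole cell miR-92b sample 3 the rRNA, mt-Co1 and mt-Cytb loci had -0.43, -0.57 and -0.54. Against control, 0.00642% of the tested loci were called with miR-92b and 0% with Scr, and 0 of the 4 mitochondrial loci in either, by limma, edgeR or DESeq2. The fold changes of the 4 lay between -0.19 and 0.36 with miR-92b and between -1.03 and -0.24 with Scr, with no unadjusted limma p below 0.05 (731 and 793 of all tested loci). The difference between nuclear and whole cell lysates in the effect of miR-92b over Scr was -1.38 for the share (log2, exact permutation p = 0.27, with 0.005 the smallest possible). Without nuclear Scr samples 2 and 3 it was 0.44. For the loci it lay between -3.19 and -1.30, and without these samples it was 0.88 for the rRNA locus, 0.037 for the mt-Co1 locus, 0.34 for mt-Cytb and -0.79 for mt-Nd6. With all samples, limma called 0.00642% of the tested loci and none of the 4, adjusted or unadjusted (1123 of all tested loci), and edgeR and DESeq2 called none of the 4.

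The other genes that serve mitochondria or mark a compartment were set beside the mitochondrial loci, by lists of gene symbols. Of the compared lists, the mitochondrial loci had the lowest nuclear level relative to whole cell lysates in each of the 9 nuclear libraries. Nuclear shares of reads are given as a percentage of the mean whole cell share of the same treatment. They were 0.747% to 16.3% for the mitochondrial loci and 13.8% to 38.0% for the mRNA of cytosolic ribosomal proteins. For a set of other cytosolic mRNAs they were 17.7% to 40.8%, and for nuclear genes of the respiratory chain 40.0% to 63.6%. For mRNAs translated at the endoplasmic reticulum (ER) they were 49.3% to 67.4%. The factors that copy, transcribe and process mitochondrial DNA and RNA had 72.3% to 413%. Mitochondrial ribosomal proteins had 106% to 148% and nuclear long noncoding RNAs 149% to 265%. The 413% is that of nuclear Scr sample 2, the library with most Lars2, a member of that list. The level of the mitochondrial ribosomal proteins rested on 1 joined locus, that of Mrps6, Slc5a3 and Gm16310, which held 47.3% to 56.9% of the list's reads in nuclear and 17.1% to 43.2% in whole cell libraries. Without it the range was 80.2% to 105%.

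**Figure D4:**
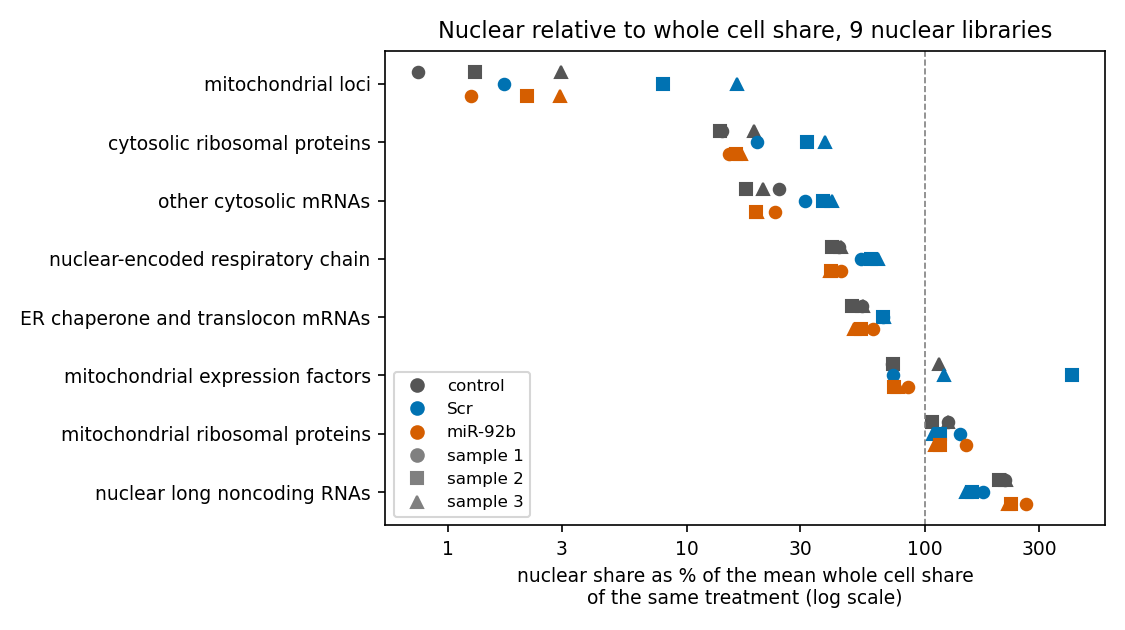
Nuclear share of reads as a percentage of the mean whole cell share of the same treatment (x axis, log scale, dashed line at 100) for the mitochondrial loci and 7 gene lists (y axis), in each of the 9 nuclear libraries. The mitochondrial loci lie between 0.747% and 16.3%, left of every other list in the same library, and the nuclear long noncoding RNAs lie between 149% and 265%.

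Of the genes for cytosolic ribosomal proteins, 79 of 83 tested loci were lower in nuclear lysates over the 3 treatments by limma and 0 higher (median -2.35). Over all tested loci 15.8% were lower and 15.3% higher (median 0.14), against which this and the following counts are to be read. Rplp0, of the ribosomal stalk, had -3.67 (SE 0.27), the locus of Rps2 and Snora64 had -2.83 (SE 0.22), and that of Rpsa with 3 noncoding genes -2.86 (SE 0.21). Of the other cytosolic mRNAs 15 of 16 were lower (median -2.23), among them the elongation factors Eef1a1 (with Gm26377, -3.53, SE 0.24) and Eef2 (-2.90, SE 0.20), while the locus of the glycolytic enzyme Pkm had 0.11 (SE 0.11, limma adjusted p = 0.453). Of the ER mRNAs 11 of 16 were lower (median -0.66), with the chaperones Canx at -1.77 (SE 0.14) and Hsp90b1, joined with 2 other genes, at -0.30 (SE 0.11).

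The partners of the mitochondrial mRNAs in the respiratory chain, which are encoded in the nucleus and translated in the cytosol, were lower to a lesser extent. Of 79 tested loci, 52 were lower and 2 higher (median -1.21), where 15.8% of all tested loci were lower and 15.3% higher. The ATP synthase subunits Atp5b and Atp5a1 had -2.05 (SE 0.13) and -2.08 (SE 0.14), with Atp5b joined with 2 small RNA genes, and Atp5c1 had -0.31 (SE 0.12, limma adjusted p = 0.0535). The log2 ratio of mitochondrial share to the share of these genes was lower in nuclear lysates by a difference of -4.18 (exact permutation p = 0.00025, the smallest possible). Of the mitochondrial ribosomal proteins, 18 of 77 were lower and 4 higher (median -0.37). Mrps6, joined with Slc5a3 and Gm16310, had 0.87 (SE 0.13), Mrps9 had 0.62 (SE 0.12) and Mrps25 had 0.04 (SE 0.13, limma adjusted p = 0.837). Of the factors that copy, transcribe and process mitochondrial DNA and RNA, 4 of 36 were lower and 3 higher (median 0.12), both below the shares over all tested loci. The poly(A) polymerase Mtpap had 0.53 (SE 0.11), Lrpprc, which stabilizes mitochondrial mRNAs, had 0.13 (SE 0.10, limma adjusted p = 0.326), and Lars2 had -0.90 (SE 0.47, limma adjusted p = 0.148). Of the nuclear long noncoding RNAs 5 of 7 were higher and 0 lower (median 0.98), with Malat1 at 1.08 (SE 0.16), Neat1 at 1.06 (SE 0.14, joined with Gm27702) and Kcnq1ot1 at 0.98 (SE 0.14).

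The share of the mitochondrial loci followed that of cytosolic ribosomal protein mRNA from library to library. Over the 9 nuclear libraries the log2 shares, both relative to the reads off the mitochondrial loci, had a Pearson r of 0.97 (exact permutation p = 7.44e-05, 0.00104 adjusted over 14 relations) and a Spearman rho of 0.95 (exact permutation p = 3.53e-04, 0.00494 adjusted). Without nuclear Scr samples 2 and 3, the libraries farthest from the median, r was 0.88 (exact permutation p = 0.0125), and for deviations from the group means it was 0.96. Over the 9 whole cell libraries r was 0.96 and rho 0.93 (exact permutation p = 2.29e-04 and 7.50e-04, 0.00107 and 0.00525 adjusted), and r was 0.86 without miR-92b samples 3 and 2. The 2 relations differed in scale. In whole cell libraries the mitochondrial share varied 3.33-fold and that of ribosomal proteins 3.50-fold, so that their ratio stayed between 0.880 and 1.23, also in miR-92b sample 3 (1.19). In nuclear libraries the mitochondrial share varied 18.1-fold and that of ribosomal proteins 2.01-fold, and the ratio ran from 0.0552 in control sample 1 to 0.297 and 0.511 in Scr samples 2 and 3. The log2 ratio differed between the compartments by -2.94 (exact permutation p = 0.00025, the smallest possible).

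**Figure D5:**
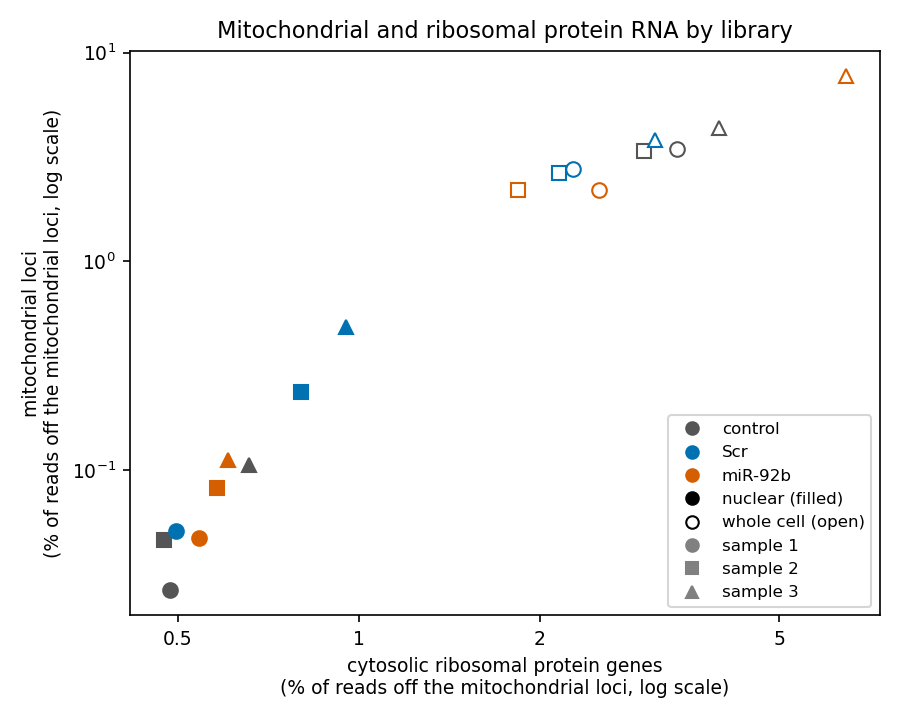
Share of the mitochondrial loci (y axis) against the share of cytosolic ribosomal protein genes (x axis), both as a percentage of the reads off the mitochondrial loci on log scales, for 9 nuclear (filled) and 9 whole cell (open) libraries. Nuclear Scr samples 2 and 3 hold the highest nuclear values on both axes, and whole cell miR-92b sample 3 the highest of all.

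With the other cytosolic mRNAs, r was 0.58 over the nuclear libraries (exact permutation p = 0.101, 0.141 adjusted) and 0.96 over the whole cell libraries (exact permutation p = 2.23e-04, 0.00107 adjusted). With nuclear genes of the respiratory chain r was 0.68 over the nuclear libraries, where it rested on Scr samples 2 and 3 (-0.23 without them), and 0.88 over the whole cell libraries, where it rested on miR-92b sample 3 with sample 2 (0.48 without them). With nuclear long noncoding RNAs r was -0.81 over the nuclear libraries (exact permutation p = 0.00718, 0.0201 adjusted), but rho was -0.72 (exact permutation p = 0.0369, 0.129 adjusted) and r without 2 libraries was -0.69 (exact permutation p = 0.0883). Whole cell miR-92b sample 3, with most mitochondrial RNA, held 0.556% of its reads on nuclear long noncoding RNAs, against 1.02% to 1.52% in the other whole cell libraries. The log2 ratio of mitochondrial share to that of cytosolic ribosomal proteins, other cytosolic mRNAs and long noncoding RNAs was compared between miR-92b and Scr. In nuclear lysates it differed by -0.93, -0.88 and -1.37 in this order (exact permutation p = 0.3, 0.4 and 0.3). In whole cell lysates it differed by -0.19, -0.14 and 0.69. The exact permutation p was 0.1, the smallest possible, for ribosomal proteins and higher for the others. Whether these markers account for the results between treatments was not tested.

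Among 10567 tested loci off the mitochondrial chromosome that averaged 50 or more normalized counts, the pattern most like that of the summed mitochondrial loci over the 18 libraries was that of Rps23, a protein of the small ribosomal subunit (Pearson r of log2 normalized counts 0.991). It was followed by Eef1a1 with Gm26377 (0.991), Rpl35, of the large subunit (0.991), Gm15772 (0.990) and Rplp0 (0.989). These values describe libraries that share the gap between compartments, and within the 9 nuclear libraries the 5 loci had r between 0.923 and 0.982. In nuclear control, Scr and miR-92b samples Rps23 had normalized counts of 163, 231 and 367, of 254, 650.3 and 852, and of 254, 299.7 and 498. The likeness by which Rps23 was chosen fixes much of this order.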

How the data were processed

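RNA of 18 samples in 6 groups of 3 was sequenced on an Illumina instrument. According to the labels and the study's methods, the authors used bcl2fastq 2.17, Trimmomatic 0.30, TopHat2, Cufflinks and Cuffdiff on GRCm38 (mm10). Versions of the last 3, and the annotation, were not given in the sources used here. A normalized signal per locus, which is a read count scaled by 1 factor per sample, and FPKM values were deposited by the authors. Of 635205 signal values above 0, 635195 (99.9984%) were whole multiples of 1 read within 0.02 reads, so reads were recovered for shares, edgeR and DESeq2. The edgeR test called 4392 loci nuclear against whole cell and limma 4831. The deposited Cuffdiff comparisons (group FPKM, fold, p and q values) were not used.

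The main test was limma 3.58.1 (R 4.3.3) with its trend option, two-sided, on log2 of the normalized count after adding 1. It fitted the 6 groups in 1 model over 15579 loci with a symbol and a mean of at least 10. Adjustment was by Benjamini-Hochberg, with calls at 0.05. Values per library were compared by exact permutation tests (scipy 1.17.1), two-sided. Nuclear against whole cell lysates was averaged over treatments or taken within one, and treatments were compared within compartments. Alternatives were edgeR 4.0.16, DESeq2 1.42.0, other pseudocounts, filters, scalings and denominators and the FPKM table. Further ones were the compared groups alone, the sample number as a block and each sample left out. Leaving out nuclear Scr samples 2 and 3, or the Mrps6 locus, was added after seeing the data. So was leaving out any sample where Scr was set against control in the nuclear over whole cell difference in share. The tests were checked on simulated data. Transcripts were searched in GENCODE M21 (BLAST 2.17.0, at least 100 aligned bases).

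The members and lists were chosen with earlier results of these data known. Named were the member loci, the other loci of the mitochondrial chromosome, Lars2, the listed nuclear copies, the 3 tested loci of highest mean of each list and the 5 loci most alike in pattern; some of these and of the cell type markers are not reported here. Over all tested loci, samples with the same number did not deviate together in any of 15 pairs of groups (correlations -0.04 to 0.11). The mitochondrial share nevertheless rose with the sample number in each nuclear group. No pair of samples in a group agreed within sampling noise.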

Additional observations from a re-analysis of the deposited data

How the results depend on the processing

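The lower mitochondrial share over treatments and the lower counts of the rRNA, mt-Co1 and mt-Cytb loci in nuclear lysates kept their direction and their side of the threshold under every alternative run. The call of mt-Nd6 within miR-92b was lost in the FPKM table (limma adjusted p = 0.0580) and with the compared groups alone (0.0502). Few reads on mt-Nd6 and 3 samples per group limit what could be detected, and exact tests within a treatment cannot go below 0.1. Without the Mrps6 locus, the log2 difference in the share of mitochondrial ribosomal proteins turned from 0.27 to -0.13. The gap by which the nuclear over whole cell difference in share was smaller in Scr than in control was also followed. It was 1.39 to 3.01 (log2) with each sample left out, a setting added after seeing the data. With each sample left out, the number of the 4 loci called was 0 to 1 for nuclear miR-92b over Scr and 0 to 3 for nuclear Scr over control.

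The following did not pass the threshold in the first place, and the cause of each change of direction was not tested. Without nuclear Scr samples 2 and 3, nuclear miR-92b over Scr turned to 0.56 for the share and to 1.10, 0.12, 0.39 and 0.60 for the rRNA, mt-Co1, mt-Cytb and mt-Nd6 loci. The difference between the compartments then turned to 0.44 for the share and to 0.88, 0.037 and 0.34 for the first 3 loci, and nuclear Scr over control to -0.44 for the rRNA locus and -0.056 for mt-Cytb. In whole cell lysates, miR-92b over control turned to 0.16, 0.078 and 0.022 with edgeR and to 0.22, 0.13 and 0.073 with DESeq2 for the rRNA, mt-Co1 and mt-Cytb loci. In the FPKM table, whole cell miR-92b over Scr was -0.0026 for the mt-Co1 locus, and the log2 ratio of the rRNA to the mt-Co1 locus for whole cell Scr over control was 0.014.

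Of the correlations with the mitochondrial share, those with cytosolic ribosomal proteins in both compartments and with other cytosolic mRNAs in whole cell libraries kept an exact permutation p below 0.05 under both alternatives, and the following changed. For deviations from the group means, r was -0.16 with ER mRNAs, -0.70 with long noncoding RNAs and 0.52 with respiratory chain genes in nuclear libraries, and 0.89 with ER mRNAs and 0.91 with respiratory chain genes in whole cell libraries. Without the 2 libraries farthest from the median, r was -0.69 with long noncoding RNAs and -0.23 with respiratory chain genes in nuclear libraries. In whole cell libraries it was then 0.53 with ER mRNAs, 0.44 with long noncoding RNAs, 0.48 with respiratory chain genes, -0.24 with mitochondrial ribosomal proteins and 0.081 with the mitochondrial expression factors. None of these passed the threshold.

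With each sample left out in turn, log2 values that changed direction ranged as follows. For nuclear over whole cell Scr, mt-Nd6 had -1.72 to 0.38. For whole cell miR-92b over Scr the share had -0.45 to 0.42, the rRNA locus -0.43 to 0.58, the mt-Co1 locus -0.57 to 0.46 and mt-Cytb -0.54 to 0.37. For whole cell miR-92b over control the share had -0.73 to 0.14, the rRNA locus -0.75 to 0.26, the mt-Co1 locus -0.83 to 0.19, mt-Cytb -0.78 to 0.13 and mt-Nd6 -0.39 to 0.77. For nuclear miR-92b over control, mt-Cytb had -0.14 to 0.97 and mt-Nd6 -0.42 to 1.48. The log2 ratio of the rRNA to the mt-Co1 locus had -0.064 to 0.65 for nuclear miR-92b over Scr, -0.20 to 0.51 for the difference between compartments, -0.52 to 0.19 for nuclear Scr over control, -0.0029 to 0.17 for whole cell miR-92b over control and -0.14 to 0.029 for whole cell Scr over control.

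With the sample number as a replicate block, limma called 4 of the 4 mitochondrial loci over treatments (log2 fold change of the rRNA locus -5.60) and 4846 of all tested loci against 4831 without it. The block changed no call of the 4 loci. The share kept its log2 difference of -5.19 with an exact sign-flip permutation p of 0.00391 within pairs. Over all tested loci the numbers did not pair the samples, and 9 of the 18 correlated best with a sample of their own number. The mitochondrial share of nuclear lysates did rise with the number in each treatment.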
